A study of Mus musculus with 30 samples.

Results

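Embryoid bodies (EBs) that lack the p53 family were compared with Trp53+/+ EBs at day 4 of differentiation, across all genes of the deposited genotype table. EBs are aggregates of embryonic stem (ES) cells that begin to form the tissues of the early embryo once they are grown in suspension. The comparison uses 4 of the 14 RNA-seq libraries of the series, 2 in each group, and 23284 genes, of which 14840 had enough reads to be tested. The study asks how p53, Wnt and TGF-β inputs meet at genes of mesendoderm, the common precursor of mesoderm and endoderm. Both groups are mouse ES cell lines labelled with a C57BL/6J background and kept, before EB formation, in N2B27 medium with LIF and the inhibitors PD0325901 and CHIR99021. The control is a Trp53+/+ line labelled wild type. The other line is Trp53-/- and in addition expresses hairpin RNAs that target p63 and p73, so all 3 family members were targeted, and it is called p53 family loss here. Each genotype is represented by 1 line, so an effect of the genotype and a difference between the lines cannot be told apart. The labels name no control hairpin in the Trp53+/+ line and leave unstated whether the libraries within a group are separate cultures. The p-values therefore measure the spread between these libraries, which may be technical.

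p53 is a transcription factor that is held at a low level by Mdm2, which marks it for destruction, and that accumulates after DNA damage and other stress. It then activates genes that stop the cell cycle, repair DNA or start cell death, and it activates Mdm2 itself. p63 and p73, encoded by Trp63 and Trp73, are relatives that bind similar DNA sites. Day 4 EBs hold cells that resemble the primitive streak, the part of the embryo where Wnt and Nodal signals turn epiblast cells into mesoderm and endoderm, and cells that do not enter the streak can become neural.

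The 4 libraries held 19104692 to 31580252 reads assigned to genes, recovered from the deposited values as described under processing. Spearman's correlation across genes, which are not independent replicates, was 0.983 between the Trp53+/+ libraries and 0.988 between the p53 family loss libraries. It was 0.978 to 0.984 between libraries of different groups, so the libraries of a group were not set far apart from those of the other. The 10 most read genes took 8.38% and 6.66% of reads in the replicate 2 libraries and 4.16% and 4.20% in the replicate 1 libraries of Trp53+/+ and p53 family loss. The levels below are deposited signals, that is reads divided by 1 factor per library. Each group mean is given ± SD over n = 2 libraries, and each log2 fold change, on the log2(signal + 1) scale and positive where p53 family loss was higher, is given ± SE. A gene is called higher or lower where limma's adjusted p is under 0.05. TruSeq RNA v2 libraries do not mark the strand, so reads of overlapping genes cannot be told apart.

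The lines differed in Y-linked transcripts, although the labels give no sex and the same background. Eif2s3y, a Y-linked translation initiation factor gene, had no read in either Trp53+/+ library and signals of 764 and 449.8 in p53 family loss, at least 184-fold higher against a floor of 3 reads per library. Uty, a Y-linked histone demethylase gene, likewise had no read in Trp53+/+ and signals of 469 and 430.1 in p53 family loss, at least 136-fold higher. Ddx3y, a Y-linked RNA helicase gene, had 1 read in the Trp53+/+ libraries together against 1199 in p53 family loss, a ratio of 929 (exact 95% interval 166 to 36727, counting error only). Kdm5d had 1 read against 403, and Zfy1 and Ube1y1 had no read in Trp53+/+ and 68 and 129 reads in p53 family loss. Xist, the RNA that silences an X chromosome, was at 165 and 155 in Trp53+/+ and at 174 and 85.2 in p53 family loss, values that overlap. In EBs of the E14 line at day 4, in CPM (reads scaled to a common library total), Eif2s3y was at 107.5 and Ddx3y at 42.1, while Kdm5d was at 0.140. The part of this difference between the lines in any result below was not tested.

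The targeted genes were examined first. Trp53 had signals of 8339 and 11784 in the Trp53+/+ libraries and 866 and 802 in p53 family loss, so that the groups lay far apart. Its mean of 834 ± 45.1 was 12.1-fold below the 10061 ± 2436 of Trp53+/+ (log2 fold change -3.57 ± 0.20, limma adjusted p = 0.0017). The table gives 1 value per gene, so reads from a part of the gene that the knockout allele leaves in place cannot be told apart from others. Trp73, the p73 gene, was at 219 and 297 in Trp53+/+ and at 48.0 and 52.5 in p53 family loss (log2 fold change -2.32 ± 0.28, limma adjusted p = 0.022). A short hairpin RNA lowers a transcript without removing it, and 19.5% of the Trp53+/+ level of Trp73 remained. Trp63, the p63 gene, had 7, 4, 6 and 0 reads in the 4 libraries (Trp53+/+ replicates 1 and 2, then p53 family loss replicates 1 and 2) and was not tested. Its knockdown could therefore not be checked at this depth.

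Across the 14840 genes tested, 84 were higher in p53 family loss (0.566%) and 100 were lower (0.674%). Each of these 184 genes changed by more than 2-fold. The median log2 fold change of all tested genes was 0.01. Without Trp53+/+ replicate 1 the count was 956 higher and 643 lower, without Trp53+/+ replicate 2 it was 512 and 594, without p53 family loss replicate 1 it was 50 and 101, and without p53 family loss replicate 2 it was 79 and 94. Over genes with a mean of at least 10 CPM, 20 were higher and 52 lower. A weaker criterion, that both libraries of a group lie on the same side of both libraries of the other, was met by 3406 genes that were higher (23.0%) and 2997 that were lower (20.2%). Of the called genes, 21 of the 84 higher and 42 of the 100 lower ones belong to at least 1 of the 37 gene lists used here. The plot of level against fold change shows the named genes among all tested ones.

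**Figure D1:**
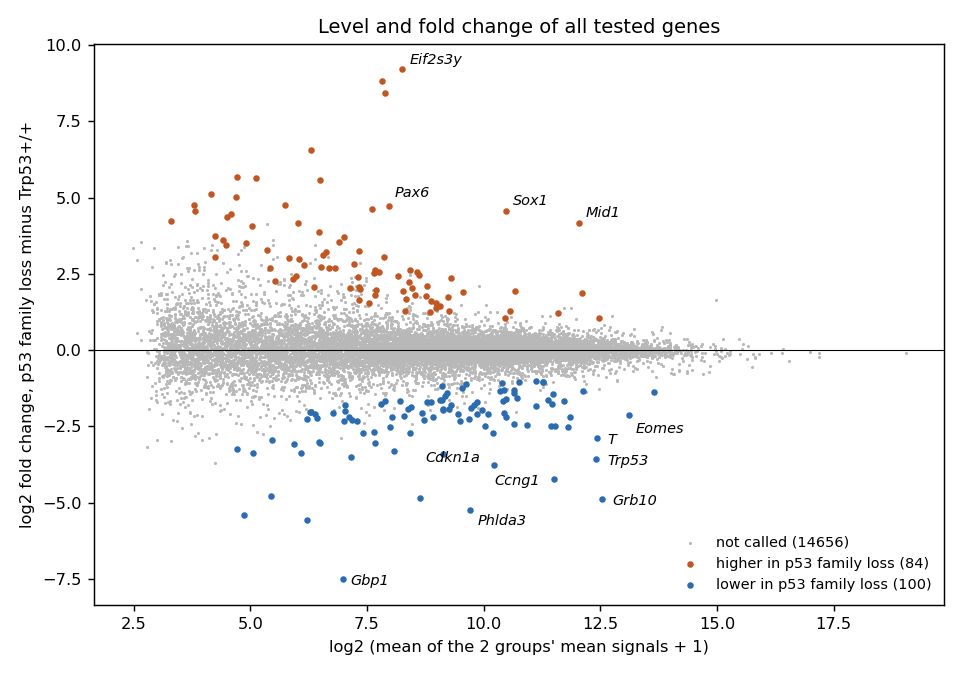
Log2 fold change (p53 family loss minus Trp53+/+) against the log2 of the mean of the 2 groups' mean signals plus 1, with 1 point per tested gene. Orange points are the 84 genes called higher, blue points the 100 called lower and grey points the 14656 others. Grb10, Trp53, T and Eomes are lower genes at high levels, and Sox1 and Mid1 are higher ones.

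p53 targets were the first group examined, split into 4 lists by function. Of 59 tested targets (of 63 listed, with 2 not in the table under the symbols used and Casp1 and Sco2 below the filter), 13 fell, none rose and 46 were not called. Their median log2 fold change was -0.64, and 40 of them lay lower without overlap and 7 higher, beside 20.2% and 23.0% of all genes. The 13 falls, counted against 0.674% of all genes called lower, spanned log2 fold changes of -5.25 to -1.06. Without a Trp53+/+ library the count of targets that fell was larger, 26 without replicate 1 and 29 without replicate 2. In bulk RNA, fewer cells of a type and less RNA per cell cannot be told apart, here or below.

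Among targets that restrain growth, Phlda3, an inhibitor of Akt signalling, had signals of 1350.1 and 1928 in Trp53+/+ and 37.7 and 45.6 in p53 family loss. That is a 39.4-fold lower mean (log2 fold change -5.25 ± 0.26, limma adjusted p = 0.0012), the lowest of the listed targets. Cdkn1a, which encodes the cell cycle inhibitor p21, was at 2096 and 2323 in Trp53+/+ and at 203 and 127 in p53 family loss (log2 fold change -3.77 ± 0.26, limma adjusted p = 0.0042). In both genes every p53 family loss library lay more than 8-fold below every Trp53+/+ library. Ptprv, a tyrosine phosphatase gene, fell from 59.7 ± 22.5 to 4.74 ± 0.618. Zmat3, an RNA-binding protein gene, fell from 5131 ± 790.4 to 1608 ± 42.7, and Psrc1, a microtubule-associated protein gene, fell from 4029 ± 316 to 1296 ± 208. Btg2, Sesn1, Sesn2 and Gdf15 did not pass the test, with log2 fold changes of -0.50, -0.10, -0.64 and -0.23.

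The promoter of Cdkn1a is shown because it is the only one among the 70 called lower genes with a RefSeq promoter that holds a p53 full site. A full site was counted where 2 half-sites, each matching the p53 half-site consensus at every base on either strand, stood 0 to 13 bases apart in the 250 bases before the gene's start. The share of such promoters was 1.43% among these genes, 0.0481% among the 10400 tested genes with a promoter and 0.0666% among all 27025 promoters of that table. With no bases between the half-sites, none of the 70 held a match at every base. In Cdkn1a the letters right after the match, tgacatgttc, differ from the half-site consensus at the first base only. They were not counted for that reason, so the capitals do not show the full extent of such letters. The Cdkn1a sequence (RefSeq, GRCm38.p6, chr17:29090729-29090978, plus strand, 5′ to 3′) has the match in capitals, and the match starts 73 bases before the gene's start.
Cdkn1a: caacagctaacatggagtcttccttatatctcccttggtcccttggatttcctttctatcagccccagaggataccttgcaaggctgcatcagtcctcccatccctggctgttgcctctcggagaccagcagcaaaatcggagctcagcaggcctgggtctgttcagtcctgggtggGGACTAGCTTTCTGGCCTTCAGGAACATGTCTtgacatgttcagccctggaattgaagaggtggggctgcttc
A match is a description of the letters only, and no binding data were used.

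Of 9 tested targets in the feedback on p53, 2 fell, beside 0.674% of all genes. Without overlap 5 were lower and none higher, beside 20.2% and 23.0% of all genes. Ccng1, which encodes cyclin G1, was at 6077 and 4927 in Trp53+/+ and at 302 and 279.5 in p53 family loss (log2 fold change -4.23 ± 0.18, limma adjusted p = 0.000995). Zfp365, a gene of DNA repair at replication forks, fell from 597 ± 95.6 to 92.6 ± 30.0. Mdm2, the main negative regulator of p53 and itself a target, was at 3042 and 2372 in Trp53+/+ and at 1766 and 1581 in p53 family loss. Its groups do not overlap, but the log2 fold change of -0.68 ± 0.18 did not pass the test (limma adjusted p = 0.16). Trp53inp1, a p53 cofactor gene, had a larger value of -1.32 ± 0.29 with a wide spread in Trp53+/+, 4458 and 2430.5, and did not pass either (limma adjusted p = 0.11). Mdm4, the partner of Mdm2, had overlapping groups and a log2 fold change of -0.04.

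Of the cell death targets, Eda2r, a TNF receptor family gene, was at 832 and 699 in Trp53+/+ and at 23.7 and 27.5 in p53 family loss (log2 fold change -4.85 ± 0.26, limma adjusted p = 0.0015). Perp, a membrane protein gene, fell from 836 ± 73.4 to 272 ± 34.4, and Aen, a nuclease gene, from 2350.2 ± 34.7 to 1129 ± 8.47. Aen was not called without either p53 family loss library (-1.06 and -1.05), nor Perp without p53 family loss replicate 2 (-1.49). Bax, Bbc3, Tnfrsf10b and Pmaip1 did not pass the test with all 4 libraries. Bax, the pore-forming Bcl2 family member, was at 3074 and 4008 against 1416 and 1855 (log2 fold change -1.11 ± 0.21, limma adjusted p = 0.079). Bbc3 (Puma) had -1.37 ± 0.31 and Tnfrsf10b, a death receptor gene, -0.98 ± 0.16. Bax and Bbc3 were called lower by DESeq2 (-1.13 and -1.40), without Trp53+/+ replicate 1 (-1.31 and -1.74) and without Trp53+/+ replicate 2 (-0.92 and -0.99), and Tnfrsf10b in the same 3 settings. Pmaip1 (Noxa) had a positive value, 0.43 ± 0.17, also short of the threshold (limma adjusted p = 0.33). Of the metabolic and repair targets, Slc19a2, a thiamine transporter gene, fell from 1362 ± 209 to 285 ± 10.3. Ak1, an adenylate kinase gene, fell from 1131 ± 48.4 to 267 ± 36.4, and Cpt1c, a carnitine palmitoyltransferase gene, from 1339 ± 0.0941 to 359 ± 31.7. The other 18 tested members of that list, Tap1 among them (-1.75 ± 0.28, limma adjusted p = 0.053), were not called.

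**Figure D2:**
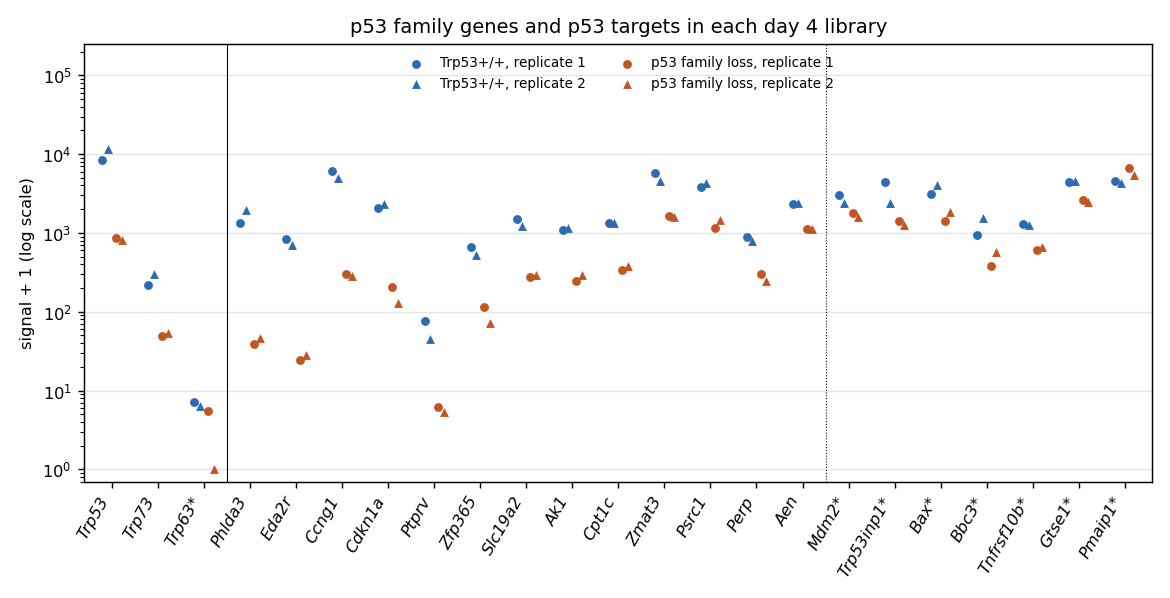
Signal plus 1 (log scale) of p53 family genes, left of the solid line, and p53 targets in each of the 4 libraries, with blue for Trp53+/+, orange for p53 family loss, circles for replicate 1 and triangles for replicate 2. Genes right of the dotted line are targets that were not called, and an asterisk marks any gene not called or not tested. Phlda3, Eda2r, Ccng1 and Cdkn1a are more than 8-fold apart between groups, while Mdm2 is at 2707 ± 474 and 1673 ± 131.

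In the E14 time course the 13 targets that fell showed no call in the upward direction between ES cells at day 0 and EBs at day 4, and 5 of them (Ptprv, Perp, Eda2r, Ak1 and Slc19a2) were lower at day 4. Of all genes tested in both tables, 19.9% were higher and 15.9% lower. Levels across the 2 tables can be set side by side only in CPM and only as a description. Cdkn1a was at 167.6 CPM in E14 ES cells, 88.3 in E14 EBs at day 4, 89.3 in Trp53+/+ and 6.90 in p53 family loss. Phlda3 was at 171, 51.2, 66.0 and 1.72 CPM in the same order. All 13 were lower in p53 family loss than in E14 EBs at day 4.

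Genes of the primitive streak and mesendoderm were the list with the largest count of calls. Of 26 tested members 16 fell, none rose and 10 were not called, with a median log2 fold change of -2.03. Among all genes 0.674% were called lower. Without overlap, 24 were lower and none higher, beside 20.2% and 23.0% of all genes, and the other 2, Lefty2 and Sp8, had positive values short of the threshold. The earlier work on these data chose this list with its direction known, so its count is a description of the list. The count ranged from 16 to 24 when each library was left out in turn.

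The factors that open the streak program include T (Brachyury), Eomes and Mixl1. T, the T-box factor of nascent mesoderm, was at 10292 and 9092 in Trp53+/+ and at 1554 and 1100.1 in p53 family loss (log2 fold change -2.89 ± 0.20, limma adjusted p = 0.0044). Eomes, the T-box factor required for definitive endoderm and cardiac mesoderm, was at 12022 and 16743 against 3112 and 3469 (-2.11 ± 0.20, limma adjusted p = 0.013). Mixl1, a homeobox factor of the streak, was at 4174 and 5286 against 835 and 837 (-2.49 ± 0.17, limma adjusted p = 0.0042). For these 3 genes the 2 groups did not come near each other. Mesp1, a factor of the earliest heart precursors, had the lowest fold of the list, 731 and 1333 against 76.1 and 113 (-3.40 ± 0.35, limma adjusted p = 0.016). Evx1, a homeobox factor of the posterior streak, fell to 17.8% of its Trp53+/+ mean.

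Anterior streak genes were lower as well. Lhx1, a LIM homeobox factor of the organiser, was at 7682 and 4566 in Trp53+/+ and at 914 and 1173 in p53 family loss (log2 fold change -2.52 ± 0.27, limma adjusted p = 0.017). Gsc (goosecoid), a homeobox repressor of the same region, fell from 1575 ± 124 to 421 ± 170.4, and Foxa2, a forkhead factor of endoderm and notochord, from 2139 ± 259 to 697 ± 41.8. Gsc was not called when the filter was a mean of at least 10 CPM. Among signals and their feedback in the streak, Fgf8, which streak cells need to migrate, fell from 4200.1 ± 184 to 1542 ± 118. Cyp26a1, which breaks down retinoic acid, was at 3220.5 and 3349 against 613 and 587 (-2.45 ± 0.15, limma adjusted p = 0.0027). Snai1, the repressor of E-cadherin, fell from 1506 ± 269.8 to 348 ± 13.6. Tdgf1 (Cripto), the co-receptor of Nodal, fell from 18473 ± 1781 to 7188 ± 324, but was not called without p53 family loss replicate 2 (-1.31).

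**Figure D3:**
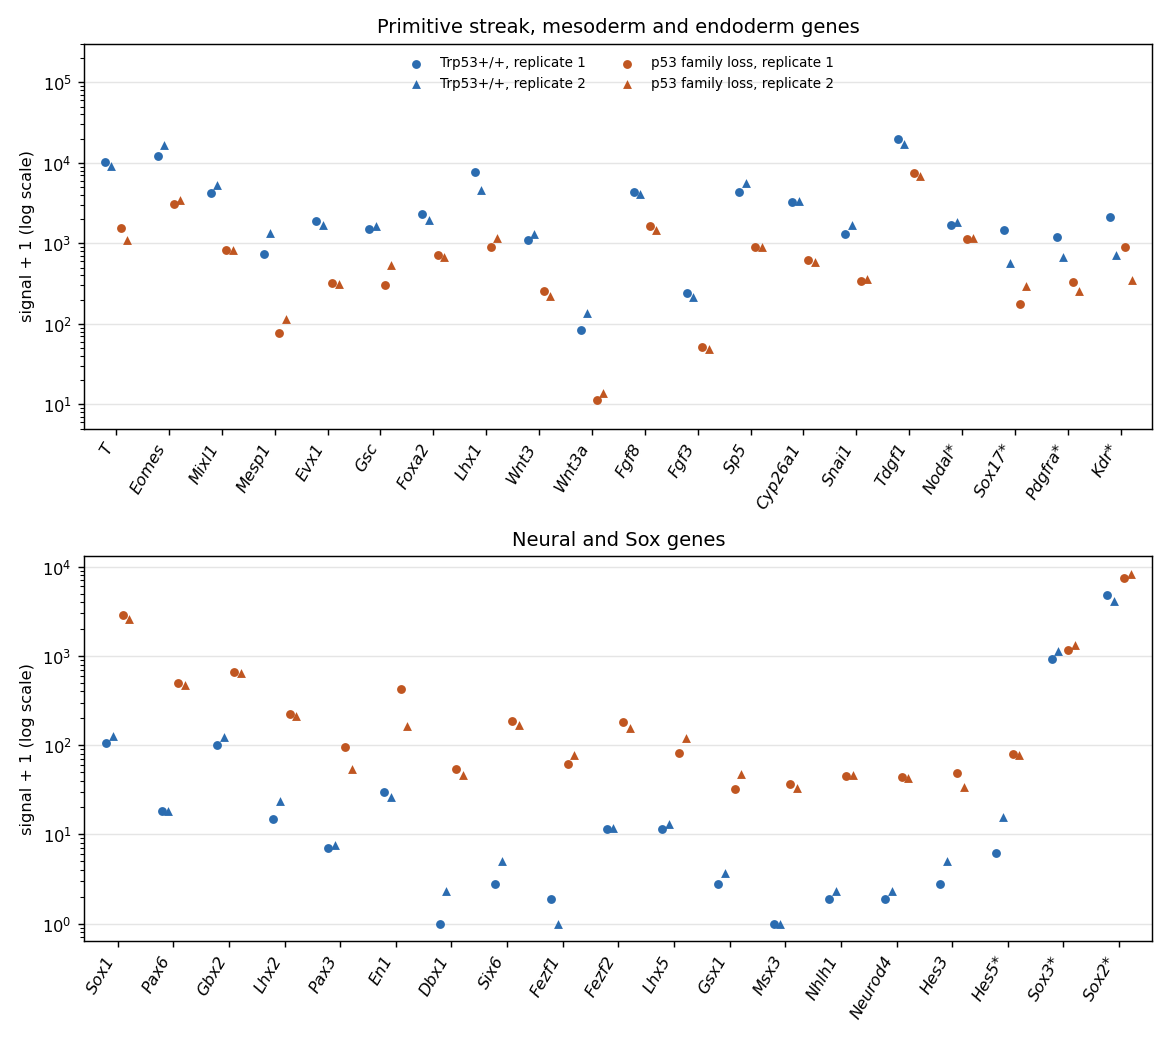
Signal plus 1 (log scale) in each of the 4 libraries for streak, mesoderm and endoderm genes (upper panel) and for neural and Sox genes (lower panel), with blue for Trp53+/+, orange for p53 family loss, circles for replicate 1 and triangles for replicate 2. An asterisk marks a gene that was not called. In the upper panel T is at 9692 ± 849 and 1327 ± 321 and Sox17 is widely spread in Trp53+/+, and in the lower panel Sox1 is at 114 ± 14.5 and 2740.3 ± 204.

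Promoters of streak genes are shown because several hold the TCF/LEF motif, the letters CTTTGAT or CTTTGAA on either strand, which factors that relay Wnt signals can bind. In the 250 bases before the gene's start, 6 of the 21 listed streak genes with a RefSeq promoter held it (28.6%), namely T, Mesp1, Fgf3, Sp5, Dkk1 and Sp8. Among all called lower genes the share was 15.7% (11 of 70), among called higher genes 8.33% (5 of 60), among the 10400 tested genes with a promoter 6.43%, and among all 27025 promoters 8.63%. These shares are given with no test, and the first was read off a list chosen with its direction known. Of the 6 genes, T, Mesp1, Fgf3 and Sp5 fell, Dkk1 had a log2 fold change of -1.31 (limma adjusted p = 0.076) and Sp8 one of 0.07. The T-box motif TCACACCT was in none of the 21, in 1 of the 70 lower genes, in 0.904% of the tested genes' promoters and in 1.30% of all promoters. The 3 sequences are from RefSeq, GRCm38.p6, 5′ to 3′ on the gene's strand, with TCF/LEF matches on either strand in capitals. T is on the plus strand at chr17:8434173-8434422, Mesp1 on the minus strand at chr7:79793591-79793840 and Sp5 on the plus strand at chr2:70474673-70474922.
T: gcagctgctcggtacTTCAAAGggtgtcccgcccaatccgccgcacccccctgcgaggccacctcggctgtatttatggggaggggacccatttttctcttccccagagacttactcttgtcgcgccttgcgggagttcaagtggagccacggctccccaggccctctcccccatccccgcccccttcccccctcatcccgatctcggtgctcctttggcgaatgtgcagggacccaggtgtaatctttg
Mesp1: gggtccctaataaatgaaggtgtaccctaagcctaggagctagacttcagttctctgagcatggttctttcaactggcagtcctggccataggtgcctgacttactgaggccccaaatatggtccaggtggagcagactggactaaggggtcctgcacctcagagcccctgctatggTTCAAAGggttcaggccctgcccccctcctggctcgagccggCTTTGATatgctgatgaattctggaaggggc
Sp5: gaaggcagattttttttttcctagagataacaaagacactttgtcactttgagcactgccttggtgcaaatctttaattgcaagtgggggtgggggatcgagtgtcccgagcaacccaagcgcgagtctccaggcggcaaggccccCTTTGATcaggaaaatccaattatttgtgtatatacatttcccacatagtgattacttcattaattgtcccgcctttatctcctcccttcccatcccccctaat
Mesp1 holds 2 matches, which start 31 and 73 bases before its start, while the match of Sp5 starts at 104 bases and that of T at 235 bases.

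In E14 EBs, 15 of the 16 streak genes that fell were higher at day 4 than at day 0, and 9 were higher at day 4 than at day 3, each by limma's adjusted p. The exception to the first count was Tdgf1. Of the 14691 genes tested both here and in E14, 19.9% were higher at day 4 than at day 0, and 333 were higher at day 4 than at day 3. T rose in E14 from 2.34 CPM at day 0 through 227 at day 3 to 645 at day 4, and it was at 393 CPM in Trp53+/+ and 55.4 in p53 family loss. Mesp1 was at 0.123, 4.73 and 96.6 CPM on those days, 41.5 in Trp53+/+ and 3.90 in p53 family loss. In CPM, 13 of the 16 were lower in p53 family loss than in E14 EBs at day 3, and all 16 were lower than in E14 EBs at day 4. In Trp53+/+ all 16 were above E14 day 3 and 11 were below E14 day 4. E14 cells are a 129/Ola line kept in serum, so line, medium and genotype differ at once in such a side by side reading.

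The same was asked of all called genes, over the 14691 genes tested in both tables, where E14 EBs at day 4 had 19.9% of genes higher and 15.9% lower than ES cells. Of the 100 genes lower in p53 family loss, 47 were higher in E14 at day 4 than at day 0 and 13 were lower, which is 1.61% of the 2923 higher and 0.556% of the 2340 lower E14 genes. Of the 74 genes higher in p53 family loss that were tested in E14, 16 were higher at day 4 and 24 lower, or 0.547% and 1.03% of the E14 lists. Between E14 days 3 and 4, 30 of the 100 lower genes were among the 333 that were higher at day 4, and none were among the 93 that were lower. By edgeR on the recovered E14 reads the first 2 counts were 47 and 14.

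Mesoderm genes beyond the streak were called less often than the streak list, though the difference between the lists was not tested. Of 31 tested members 2 fell and 29 were not called, with a median of -0.91. The 2 falls stand beside 0.674% of all genes. Without overlap, 14 were lower and 4 higher, beside 20.2% and 23.0% of all genes. Aplnr, the apelin receptor of early mesoderm, was at 3394 and 2036 in Trp53+/+ and at 553 and 434 in p53 family loss (log2 fold change -2.42 ± 0.28, limma adjusted p = 0.019). Rspo3, a secreted enhancer of Wnt signals, fell from 664 ± 44.6 to 160.2 ± 44.1. Apln, the ligand of Aplnr, is on no list and was chosen after its values were seen. It fell from 2258 ± 985 to 519.7 ± 69.1 (limma adjusted p = 0.044), and it was not called when the filter was a mean of at least 10 CPM. Msgn1, a presomitic mesoderm factor, was at 46.9 and 21.2 against 0.739 and 2.58 (-3.71 ± 0.65, limma adjusted p = 0.065). Pdgfra, a receptor of paraxial mesoderm, had -1.63 ± 0.31 (limma adjusted p = 0.081). Kdr, a VEGF receptor of the cells that give rise to vessels and blood, varied within each group, 2132 and 708 against 911 and 346, and its groups overlap. Its log2 fold change of -1.13 ± 0.62 did not pass the test (limma adjusted p = 0.50), and it was called without Trp53+/+ replicate 2 (-1.92).

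Definitive endoderm genes had a median of -1.23 over 15 tested members. Of these 2 fell, beside 0.674% of all genes, namely Foxa2 and Gsc, both also streak genes. Without overlap, 11 were lower and 1 higher, beside 20.2% and 23.0% of all genes. Sox17, the early endoderm regulator, was at 1448 and 572 in Trp53+/+ and at 177 and 294 in p53 family loss (log2 fold change -1.99 ± 0.47, limma adjusted p = 0.12). Gata4 and Gata6, zinc finger factors of endoderm and heart, had -1.86 ± 0.32 and -1.91 ± 0.33 (limma adjusted p = 0.061 for both). For Sox17, Gata4 and Gata6 the higher Trp53+/+ library was replicate 1. Visceral and parietal endoderm genes, markers of extraembryonic tissue that EBs can hold, had no call among 18 tested members and a median of 0.17, with summed signals of 29083 and 19608 in Trp53+/+ and 28928 and 26243 in p53 family loss.

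Signalling genes were counted by their role. Of 16 tested Wnt ligands 4 fell, 1 rose and 11 were not called, with a median of -1.25. Over all genes 0.674% were called lower and 0.566% higher. Without overlap, 10 ligands were lower and 3 higher, beside 20.2% and 23.0% of all genes. Wnt3, the ligand needed for streak formation, was at 1108 and 1289.5 in Trp53+/+ and at 258 and 219 in p53 family loss (log2 fold change -2.32 ± 0.20, limma adjusted p = 0.010). Wnt3a, which maintains posterior mesoderm, was at 82.5 and 135 against 10.3 and 12.9 (-3.09 ± 0.40). Wnt5b, a ligand mostly of non-canonical signals, fell from 702 ± 1.65 to 141 ± 7.91, and Wnt11, of the same kind, from 207 ± 63.4 to 50.4 ± 0.787. Wnt11 was near the threshold (limma adjusted p = 0.050) and was not called by edgeR or without either p53 family loss library (-2.00 and -1.97). Wnt1, a ligand of the midbrain, had no read in Trp53+/+ and signals of 19.2 and 16.3 in p53 family loss, at least 5.40-fold higher against the floor. It too was not called by edgeR, with a pseudocount of 10, or without either p53 family loss library (4.12 and 4.34).

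Of 18 tested Wnt receptors and co-receptors 1 was called, beside 0.674% of all genes called lower and 0.566% called higher. Fzd1, a frizzled receptor, was at 976 and 793 in Trp53+/+ and at 241 and 219 in p53 family loss (log2 fold change -1.93 ± 0.20, limma adjusted p = 0.016). Fzd2, another frizzled receptor, was higher without overlap, 5930.0 and 6157 against 3779 and 3810.2, but did not pass the test (0.67 ± 0.14, limma adjusted p = 0.10). The receptors' median was 0.20, and 5 members lay higher and 5 lower without overlap, beside 23.0% and 20.2% of all genes. Of 24 tested Wnt targets and inhibitors 3 fell, T, Cyp26a1 and Sp5, with a median of -0.37. Sp5, a zinc finger factor induced by Wnt signals, was at 4358 and 5658 against 893 and 893 (-2.47 ± 0.18, limma adjusted p = 0.0047). Axin2, a feedback inhibitor and widely used reporter of canonical Wnt signals, was at 2406 and 2575 against 1404 and 1162 (-0.96 ± 0.17, limma adjusted p = 0.064). Dact1, a Wnt pathway regulator on no list, was chosen after its values were seen. It fell from 1971 ± 109.8 to 811 ± 145, and was not called without p53 family loss replicate 2 (-1.11) or with the filter at 10 CPM.

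In the Nodal and Activin pathway 6 of 25 tested genes fell (beside 0.674% of all genes) and none rose, with a median of -0.22. Apart from Eomes, Mixl1, Lhx1, Gsc and Tdgf1 of the streak list, this was Fst (follistatin), a secreted Activin inhibitor, at 4932 and 7261 in Trp53+/+ and at 1519.6 and 1150.0 in p53 family loss (log2 fold change -2.18 ± 0.24, limma adjusted p = 0.017). Nodal itself was at 1677 and 1838 against 1120.5 and 1154 (-0.63 ± 0.15, limma adjusted p = 0.14), and its feedback inhibitor Lefty2 had overlapping groups, 2041 and 1108 against 2528 and 1872. In the BMP pathway 1 of 24 tested genes fell, Msx1, a homeobox target of BMP signals, which was at 289 and 296 in Trp53+/+ and at 57.7 and 33.5 in p53 family loss. Of 21 tested FGF and ERK feedback genes 3 fell, Fgf8, Fgf3 and Etv4. Fgf3, a ligand of the posterior streak, was at 239.8 and 218 against 50.3 and 47.3 (-2.20 ± 0.26, limma adjusted p = 0.021). Etv4, an ETS factor downstream of FGF, had -1.06 ± 0.17 (limma adjusted p = 0.047), and was not called without either p53 family loss library (-1.15 and -0.98) or over genes of at least 10 CPM. None of 16 tested Notch genes was called at the adjusted threshold. Hes5, a neural target of Notch, had 3.00 ± 0.52 (limma adjusted p = 0.064), and Hes1 had -0.78 ± 0.16.

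Neuroectoderm genes had the opposite sign to the streak genes. Of 26 tested members 7 rose, none fell and 19 were not called, with a median log2 fold change of 1.71. Among all genes 0.566% were called higher. Without overlap, 22 were higher and 2 lower, while the shares of all genes were 23.0% and 20.2%. Dbx1 and Pax3, both among the 7, were at 0.0262 and 0.257 CPM in Trp53+/+. Members that low can pass the read filter through the p53 family loss libraries alone. These counts and the list's median therefore cannot be read against all genes. Sox1, an early marker of the neural plate, was at 104 and 125 in Trp53+/+ and at 2885 and 2596 in p53 family loss, a 23.9-fold higher mean (log2 fold change 4.57 ± 0.19, limma adjusted p = 0.000995). Pax6, a paired box factor of forebrain and eye, was at 17.4 and 17.2 against 496 and 469.6 (4.72 ± 0.27, limma adjusted p = 0.0017). Every p53 family loss library was far above both Trp53+/+ libraries for these genes. Lhx2, a LIM homeobox factor of the forebrain and eye field, rose from 18.2 ± 6.12 to 219 ± 8.05. Gbx2, a factor of the anterior hindbrain that is also on the naive pluripotency list, rose from 111 ± 15.7 to 654 ± 18.3. En1, a midbrain factor, was at 28.7 and 25.2 against 423 and 163 (3.24 ± 0.47, limma adjusted p = 0.041). Pax3, of the dorsal neural tube, rose from 6.36 ± 0.390 to 74.0 ± 29.2, but was not called without p53 family loss replicate 1 (2.89). Dbx1, of the ventral neural tube, had 1 read in Trp53+/+ and 124 in p53 family loss, a ratio of 96.1 (exact 95% interval 16.9 to 3825).

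The count of neural genes that rose was 14 without Trp53+/+ replicate 1 and 15 without Trp53+/+ replicate 2, and 3 over genes with a mean of at least 10 CPM. In CPM all 7 were higher in p53 family loss than in E14 EBs at day 3 and at day 4. Sox1 was at 5.78 CPM in E14 EBs at day 4, 4.62 in Trp53+/+ and 114 in p53 family loss. Pax6 was at 31.0 CPM in E14 ES cells, 0.832 in E14 EBs at day 4, 0.701 in Trp53+/+ and 20.1 in p53 family loss. General neural genes were not called. Nes (nestin), an intermediate filament of neural precursors, had a log2 fold change of 0.06, and Sox3 and Msi1 had 0.26 and 0.39.

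Several transcription factor genes of the developing brain that are on no list were also called higher, and are named after their values were seen. Only genes that rose were picked for this, and not every neural gene rose. On the neuroectoderm list 23 tested members were above 0 and 3 below. In mean CPM, Olig1 was at 84.7 in Trp53+/+ and 26.8 in p53 family loss, and Olig2 at 27.7 and 12.6. Six6, of the eye field, was at 1.74 and 3.98 in Trp53+/+ and at 184 and 168 in p53 family loss (log2 fold change 5.58 ± 0.45, limma adjusted p = 0.0082). Fezf2, of the forebrain, rose from 10.5 ± 0.133 to 166 ± 18.7. Its relative Fezf1 had 1 read in Trp53+/+ and 169 in p53 family loss, a ratio of 131 (exact 95% interval 23.2 to 5203). Lhx5, Gsx1 and Hes3, factors of brain patterning and neural precursors, had log2 fold changes of 3.03, 3.62 and 3.45. Lhx5 (2.73) and Gsx1 (3.34) were not called without p53 family loss replicate 2, and Hes3 without either p53 family loss library (3.19 and 3.71). Nhlh1 and Neurod4, basic helix-loop-helix genes of young neurons, had 2 reads each in Trp53+/+ and 113 and 106 in p53 family loss, ratios of 43.8 (exact 95% interval 11.8 to 366) and 41.1 (exact 95% interval 11.1 to 344). Msx3, of the dorsal neural tube, had no read in Trp53+/+ and was at least 10.2-fold higher.

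Pluripotency genes did not move together. Their counts stand beside 0.566% of all genes called higher and 0.674% called lower. Of 21 tested naive genes, which mark the ES cell state, 1 rose, Gbx2, with a list median of -0.08. Zfp42 (Rex1) had overlapping groups, 704 and 515 in Trp53+/+ and 696 and 565 in p53 family loss. Of 12 general pluripotency genes 1 fell, Tdgf1. Pou5f1 (Oct4) was at 15301 and 28216 against 9619 and 14947 (log2 fold change -0.79 ± 0.34), and Nanog at 544 and 695 against 337 and 395 (-0.75 ± 0.22, limma adjusted p = 0.19). Sox2, which both pluripotent and neural cells express, was higher without overlap, 7424 and 8312 against 4757 and 4102, but short of the threshold (0.83 ± 0.16, limma adjusted p = 0.083). Of 14 primed epiblast genes, which mark the state after naive pluripotency, 1 rose, Sall2, from 3708 ± 176 to 7638 ± 348. Sall2 was not called without either p53 family loss library (1.09 and 1.00). Fgf5, a standard marker of the primed state, was at 5059.7 and 4848 against 3570.0 and 3849.9 (-0.42 ± 0.14, limma adjusted p = 0.27).

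**Figure D4:**
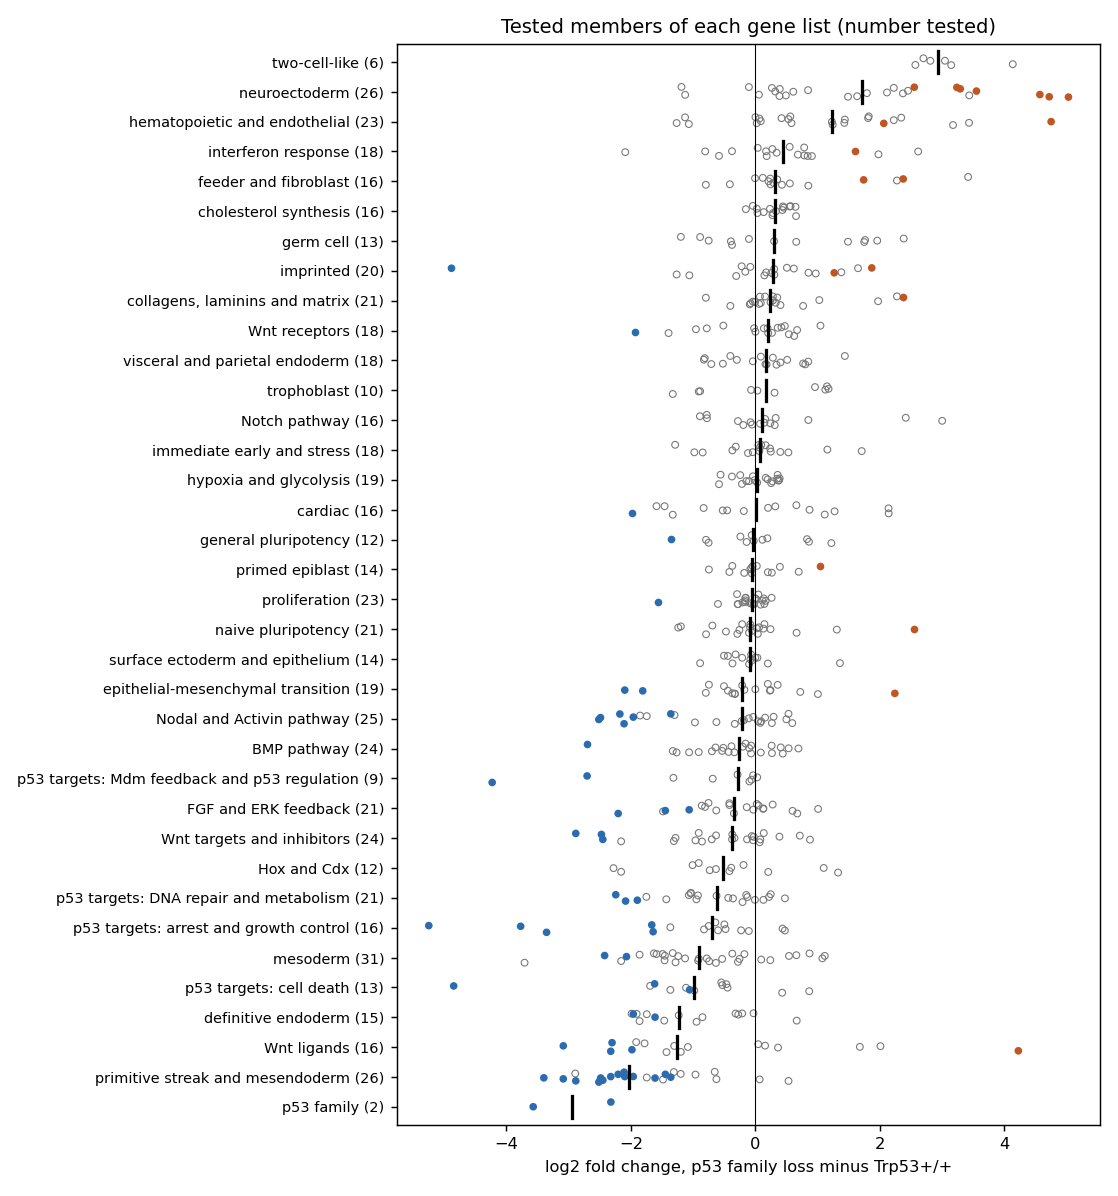
Log2 fold change (p53 family loss minus Trp53+/+) of the tested members of each gene list, with the number tested in brackets, sorted by the list's median (black bar). Filled orange and blue points are genes called higher and lower, and open points were not called. Vertical scatter within a row has no meaning. Primitive streak genes have a median of -2.03 with 16 called lower, and neuroectoderm genes one of 1.71 with 7 called higher.

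Markers of other cell types that EBs can hold were counted in the same way. Of 23 tested blood and vessel genes 2 rose, with a median of 1.23 and 14 higher without overlap. Over all genes 0.566% were called higher and 23.0% were higher without overlap. Hba-x and Hbb-y were at 0.149 and 0.0704 CPM in Trp53+/+. Members that low can pass the read filter through the p53 family loss libraries alone, so the list's counts cannot be read against those shares. Hba-x, an embryonic alpha globin, was at 0.869 and 6.63 in Trp53+/+ and at 93.9 and 108 in p53 family loss (log2 fold change 4.75 ± 0.70, limma adjusted p = 0.041). Hbb-bh1, an embryonic beta globin, had 3.43 ± 0.57 (limma adjusted p = 0.056). Sox18, of vessel cells, rose from 30.5 ± 0.0758 to 132 ± 23.0, but was not called without either p53 family loss library (1.89 and 2.24). The list's median was -0.52 over genes with a mean of at least 10 CPM, so its positive median belongs to members at low levels, and its summed signal was 6925 and 4003 in Trp53+/+ and 5359 and 3920.4 in p53 family loss. Genes of the two-cell-like state are transcribed when the embryonic genome first becomes active, and in a few ES cells. Of 12 listed, only 6 had enough reads to be tested. Their summed signals were 33.0 and 9.29 in Trp53+/+ and 276 and 159 in p53 family loss. All 6 were higher without overlap, with a median of 2.93, and none was called at the adjusted threshold. Genes so low in Trp53+/+ can pass the read filter through the p53 family loss libraries alone. Their count therefore cannot be set beside the 23.0% of all genes. Zscan4d was at 6.95 and 1.33 against 93.9 and 59.3 (4.14 ± 0.67, limma adjusted p = 0.052), and such genes share reads with near-identical copies. Germ cell (13 tested), trophoblast (10) and surface ectoderm (14) lists had no call, and of 16 cardiac genes only Wnt11 was called.

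Of 16 tested feeder and fibroblast genes 2 rose, beside 0.566% of all genes. Col1a2, a chain of collagen I, was at 261 and 154 in Trp53+/+ and at 1258 and 867 in p53 family loss (log2 fold change 2.38 ± 0.32, limma adjusted p = 0.030). Acta2, smooth muscle actin, rose from 279 ± 50.3 to 926 ± 4.89. The list's summed signal was 57081 and 26103 in Trp53+/+ and 34504 and 22160 in p53 family loss, with a median of 0.32. Among genes of epithelial-mesenchymal transition, 2 of 19 fell and 1 rose, beside 0.674% and 0.566% of all genes. Snai1 fell as given above, and Cdh11, a mesenchymal cadherin, fell from 1379 ± 126 to 404 ± 139, and was not called with the filter at 10 CPM. Zeb1, another repressor of E-cadherin, rose from 119 ± 38.5 to 552 ± 48.9 (2.24 ± 0.28, limma adjusted p = 0.025).

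Imprinted genes, which are read from 1 parental copy, gave 1 of the largest changes. Grb10, an adaptor protein that restrains growth factor signals, was at 11870.0 and 11059 in Trp53+/+ and at 374 and 401 in p53 family loss, 29.6-fold lower (log2 fold change -4.88 ± 0.15, limma adjusted p = 0.000396). In CPM it was at 529 in E14 EBs at day 4, 464 in Trp53+/+ and 16.1 in p53 family loss. H19, a growth-restraining non-coding RNA, was at 2440.3 and 1430.2 against 7312 and 6388 (1.87 ± 0.26), and Sgce, a sarcoglycan gene, rose from 361 ± 9.83 to 869 ± 28.4. H19 was not called over genes of at least 10 CPM, nor Sgce without either p53 family loss library (1.30 and 1.23). The other 17 tested members of the imprinted list were not called, and the list's median was 0.28. Among all genes 0.674% were called lower and 0.566% higher.

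Genes of growth and stress were counted next, beside 0.566% of all genes called higher and 0.674% called lower. Of 23 tested proliferation genes 1 fell, Ccnd2 (cyclin D2), from 2528 ± 466 to 851 ± 129, and the median was -0.06. Immediate early and stress genes (18 tested), hypoxia and glycolysis (19) and cholesterol synthesis (16) had no call, with medians of 0.07, 0.03 and 0.31. Of the cholesterol synthesis genes, 8 were higher without overlap and none lower, beside 23.0% and 20.2% of all genes. Of 18 interferon response genes 1 rose, Oasl2, from 232 ± 41.4 to 708 ± 98.5, which was not called without p53 family loss replicate 1 (1.47) or over genes of at least 10 CPM. The next 3 genes, all called higher, were chosen after their values were seen. Cdkn2a, whose locus encodes the Mdm2 inhibitor p19Arf and the cell cycle inhibitor p16Ink4a, was at 66.0 and 58.4 in Trp53+/+ and at 316 and 429 in p53 family loss (log2 fold change 2.55 ± 0.27, limma adjusted p = 0.016). Hrk and Bmf, pro-death members of the Bcl2 family, rose from 84.7 ± 22.8 to 326 ± 14.1 and from 871 ± 7.25 to 2150.3 ± 209. Hrk was not called without either p53 family loss library (2.00 and 1.91), nor Bmf without p53 family loss replicate 2 (1.20).

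The remaining genes under the rule for the largest changes belong to no list. Mid1, a ubiquitin ligase gene, was at 484 and 394 in Trp53+/+ and at 9073 and 6857 in p53 family loss (log2 fold change 4.17 ± 0.20, limma adjusted p = 0.0012). In CPM it was at 17.8 in Trp53+/+, 332 in p53 family loss and 1848 in E14 EBs at day 4, so the Trp53+/+ line held the lowest level of the 3. Gbp1, an interferon-induced GTPase gene, had 503 reads in Trp53+/+ and 1 in p53 family loss, a ratio of 649 (exact 95% interval 116 to 25690). Usp26, Scube2, Peg12 and Sohlh2 were higher, with log2 fold changes of 3.07, 2.82, 2.63 and 2.63. Scube2 was not called without p53 family loss replicate 1 (2.24), nor Peg12 over genes of at least 10 CPM. Kcnj3, a potassium channel gene, Itga8, an integrin gene, and Inpp5d, a phosphatase gene, were lower, with -3.49, -3.31 and -3.06.

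Fold changes were also summarised by chromosome, a step chosen after the data had been seen, because the lines differ in Y-linked transcripts. A chromosome could be given by symbol to 13257 of the 14840 tested genes, and medians were taken over the 8697 of these with a mean of at least 10 CPM. The 228 genes of chromosome 18 had a median log2 fold change of 0.30, 0.27 between the replicate 1 libraries and 0.32 between the replicate 2 libraries. The 393 genes of chromosome 6 had a median of -0.18, with -0.22 and -0.15. The other 17 autosomes lay between -0.05 and 0.05, and chromosome X at 0.01. Within groups, the 480 genes of chromosome 8 had a median difference of -0.25 between Trp53+/+ replicates 1 and 2 and of -0.12 between the p53 family loss replicates. DNA copy number was not analysed here, and its part in these medians was not tested.

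**Figure D5:**
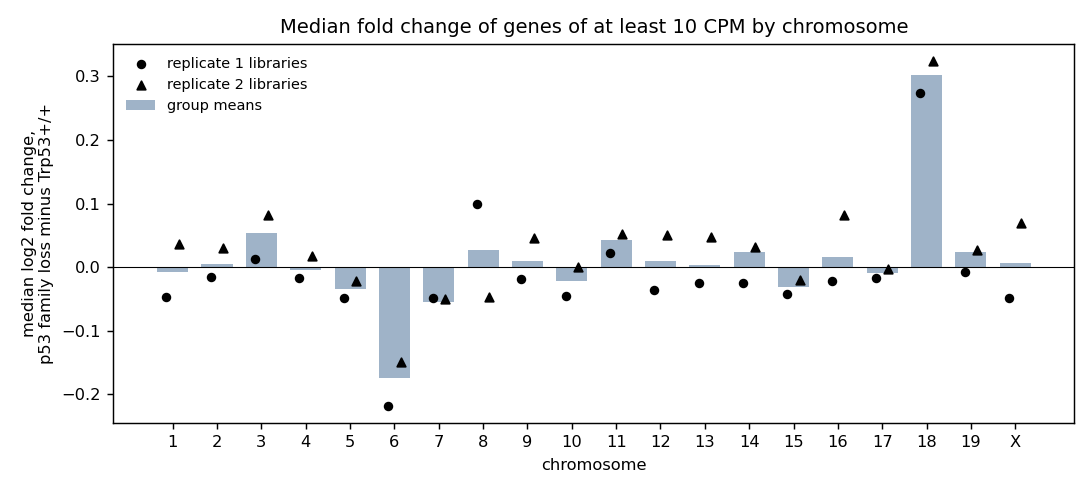
Median log2 fold change (p53 family loss minus Trp53+/+) of genes of at least 10 CPM on each autosome and the X chromosome, with bars for group means, circles for the replicate 1 libraries and triangles for the replicate 2 libraries. Chromosome 18 is at 0.30 and chromosome 6 at -0.18, and in both the circles and triangles are on the same side as the bar.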

How the data were processed

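The 4 libraries are paired-end TruSeq RNA v2 libraries from RNA with an integrity number over 9.5, per the labels' protocols. The submitters' processing notes name build mm9 and the tools HTSeq 0.5.4, SAMtools 0.1.19, Bowtie2, DESeq2 and FastQC 0.11.3, with no role or order. The deposited signal per gene symbol is a read count divided by 1 factor per library. All values (100%) were whole multiples of the library's smallest step within 1e-06, and dividing by it gave 19104692 to 31580252 reads. Genes passing edgeR's filterByExpr on these reads were tested on log2(signal + 1) with limma 3.58.1 (its trend option, R 4.3.3), with Benjamini-Hochberg adjusted p under 0.05 over all 14840 genes. This left 2 residual and 4.33 prior degrees of freedom. The E14 table (10 libraries) was fitted alike. The fit of the genotype table, but not that of the E14 table, was tested on simulated data. In the simulated comparison of p53 family loss with Trp53+/+, 19 of the 170 calls were false. That is a larger share than the threshold of 0.05 is meant to allow. The simulated libraries were drawn independently, without the shared deviation of same-numbered libraries described below. The fit called 46.3% of the 67 genes given a 2-fold difference. At 4-fold it called 86.6% of 67 genes, and at 8-fold 93.9% of 66. A fold change understates low genes. Intervals and floors (3 reads per library) cover counting error only, since PCR copies are not independent molecules.

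The members and the 37 gene lists were chosen with earlier results of these data known. The text names the 12 largest rises and the 12 largest falls (called, no overlap between groups, 10 CPM or more on average in the higher group, clone symbols left out), the 4 members of a list that had the lowest p-values, and a fixed set of p53, streak, Wnt and pluripotency genes. Promoters are RefSeq's (GRCm38.p6), matched by symbol, and no coordinate was carried over to mm9. Alternatives were edgeR 4.0.16 and DESeq2 1.42.0 on the recovered reads, other scalings, pseudocounts and filters, a replicate block, and leaving out each library. The 16 ChIP-seq and input samples were not used here. A few genes are not reported here.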

Additional observations from a re-analysis of the deposited data

How the results depend on the processing

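All 184 called genes kept their direction in every alternative in which they were tested, and edgeR's quasi-likelihood test called 84 higher and 100 lower, 181 of them the same. TMM or median-of-ratios scaling, pseudocounts of 0.5 and 10 and no filter stayed within 1.5 times of these counts. DESeq2 called 283 higher and 374 lower, with 24 p53 targets lower and 13 neural genes higher. A filter of at least 10 CPM gave 20 higher and 52 lower, with 3 neural genes higher. Leaving out 1 library, which leaves a lone sample assumed to vary like the others, gave 50 to 956 genes higher and 94 to 643 lower, 12 to 29 p53 targets lower, 16 to 24 streak genes lower (17 without either p53 family loss library) and 7 to 15 neural genes higher. Signs turned in the median of the blood and vessel list at 10 CPM (-0.52), and, when 1 library was left out, in the Notch median (-0.0882 to 0.171, negative without Trp53+/+ replicate 2), Zfp42 (-0.17 to 0.28, negative without that library or p53 family loss replicate 1) and Xist (-0.90 to 0.12, positive without p53 family loss replicate 2). The causes were not tested.

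The groups share replicate numbers. Deviations of same-numbered libraries correlated at r = 0.70 across 12419 genes, but with 2 pairs and no shared batch in the labels they are not treated as pairs. With a replicate block, 1548 genes were higher and 1425 lower, with 39 p53 targets and 24 streak genes lower and 18 neural genes higher. The block also called Kdr lower (-1.13). Of the 91 named genes that were not called, 83 were called with the block, 45 by DESeq2, 60 and 55 without Trp53+/+ replicate 1 or 2, and 6 and 9 without p53 family loss replicate 1 or 2. With 2 libraries per group and 2 residual degrees of freedom, changes of genes at low levels are the least certain.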

Other observations

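On the germ cell list none of 13 tested genes was called at limma's adjusted threshold, and the median log2 fold change was 0.30. Without overlap 6 of these genes were higher and 2 lower, beside 23.0% and 20.2% of all genes. By sign 7 were above 0 and 6 below, and the values ran from -1.20 to 2.38. The highest was that of Dazl, an RNA-binding protein gene of germ cells, at 69.5 and 30.5 in Trp53+/+ and at 301 and 199.6 in p53 family loss (2.38 ± 0.45, limma adjusted p = 0.078).

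Sycp1 and Smc1b are on no list and were chosen after their values were seen. Sycp1, a gene of the synaptonemal complex, rose from 17.5 ± 2.26 to 176 ± 68.3 (log2 fold change 3.21 ± 0.38, limma adjusted p = 0.022). Smc1b, a meiotic cohesin gene, was at 87.7 and 91.5 in Trp53+/+ and at 543 and 431 in p53 family loss (2.42 ± 0.24, limma adjusted p = 0.014).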
